A study of Homo sapiens with 2 samples.

Results

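The ERBB receptors and their ligands were compared between 2 states of HEC1A, a long-established cell line from a human endometrial adenocarcinoma. The set held 10 genes, the receptors EGFR, ERBB2 and ERBB3 and the 7 ligands AREG, EREG, HBEGF, TGFA, BTC, EPGN and NRG1. A gene was measured where a probe set of the array carried its symbol and no other in the platform annotation, and this held for 8 of the 10 genes, out of 19775 genes in all. No such probe set was listed for AREG and EPGN, which were not analysed here. The 8 genes had 34 probe sets, and each gene was represented by its brightest probe set, by the mean over both arrays.

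RNA from cells that overexpress EMP2 and RNA from cells with a vector for a short hairpin RNA against EMP2 were each hybridized to 1 Affymetrix array. EMP2 is epithelial membrane protein 2, a small protein that spans the membrane repeatedly. Both states were engineered in the same parental line and were otherwise untreated, and no unmodified HEC1A array was used here, so effects of the overexpression and of the knockdown cannot be told apart. Whether each state is 1 clone or a pool of cells is not given in the sources used here. With 1 array per group there is no replicate, so no error and no p-value can be given, and each difference describes these arrays. Differences are the log2 value in overexpression minus the log2 value in knockdown, and fold changes were computed from them.

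EMP2 was higher in the overexpression array on its brightest probe set (12.25 against 9.51) and differed by 0.39, 0.23 and 0.00 on the others. Of the 19775 genes, 12061 passed a brightness filter, a log2 value of at least 6.40 on at least 1 array. All 7 epithelial markers listed passed it, among them EPCAM at 13.13 and 13.12, while PTPRC, the defining leukocyte marker, read 3.72 and 3.68. None of 5 measured leukocyte, 2 of 6 endothelial and 2 of 7 fibroblast markers passed. Of these, the fibroblast marker THY1 was 1.63-fold higher in overexpression (a difference of 0.70), on 3 of 3 probe sets. The other fibroblast marker past the filter, COL1A1, did not share this difference and read 8.51 and 8.48 (0.03). The keratins KRT19 (-0.97) and KRT8 (-0.77) were lower in overexpression and CDH1, E-cadherin, was higher (1.08). KRT19 and CDH1 each had 1 of 2 probe sets past the filter. The log2 values of the 7 epithelial markers summed to 77.6 in overexpression and 78.9 in knockdown. This sum adds differences of both signs and is no measure of total epithelial signal. The part of these shifts in the results on the ERBB genes was not tested.

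ERBB receptors are tyrosine kinases of the cell surface that act as dimers. Ligands of the EGF family are made as membrane-anchored precursors, are cut loose by proteases such as ADAM17, and bind either EGFR (EREG, AREG, TGFA, HBEGF, BTC and EPGN) or ERBB3 (NRG1), and some bind ERBB4 too. ERBB2 has no known soluble ligand and serves as a partner of the others, while ERBB3 has little kinase activity of its own and recruits PI3-kinase when paired. In endometrial epithelium and carcinoma these receptors feed the RAS-ERK and PI3-kinase pathways, which induce their own feedback inhibitors.

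The upstream sequence of EREG and of EGFR is shown because EREG was the ligand and EGFR a receptor past 1.5-fold lower in overexpression, and RefSeq's table has the sequence for both. Matching by symbol, 8 of the 10 genes had a promoter in that table (build GRCh38.p14). ERBB3 had none there, and NRG1 was not looked up, so neither was examined. Each line gives the 250 bases before a transcription start on the plus strand, at chr4:74364895-74365144 for EREG, and at chr7:55018767-55019016 and chr7:55109589-55109838 for the first and the second listed start of EGFR. Capitals mark matches, on either strand, to the TATA box TATAAA, the GC box GGGCGG or the AP-1 site TGANTCA.
EREG: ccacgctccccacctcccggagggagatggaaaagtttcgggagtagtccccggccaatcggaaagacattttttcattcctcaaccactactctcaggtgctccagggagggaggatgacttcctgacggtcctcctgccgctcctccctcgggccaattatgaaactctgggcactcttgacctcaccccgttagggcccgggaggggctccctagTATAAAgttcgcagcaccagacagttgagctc
EGFR first start: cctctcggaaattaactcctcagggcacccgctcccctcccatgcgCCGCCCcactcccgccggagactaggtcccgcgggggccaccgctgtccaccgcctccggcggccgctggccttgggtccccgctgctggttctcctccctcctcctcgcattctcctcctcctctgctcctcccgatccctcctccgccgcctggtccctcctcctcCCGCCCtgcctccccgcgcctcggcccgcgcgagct
EGFR second start: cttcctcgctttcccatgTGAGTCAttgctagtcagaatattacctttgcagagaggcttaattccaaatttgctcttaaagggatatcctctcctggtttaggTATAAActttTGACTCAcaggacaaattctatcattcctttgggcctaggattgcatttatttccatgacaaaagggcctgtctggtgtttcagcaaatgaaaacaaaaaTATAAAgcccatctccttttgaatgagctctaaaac
The EREG window held 1 TATA box match near its end and no GC box or AP-1 match. The first EGFR window held 2 GC box matches in 73.6% G and C, and no TATA box match. The second EGFR window was 38.8% G and C and held 2 AP-1 and 2 TATA box matches. Of 35116 upstream windows of this length, 10.7% held the TATA box, 42.6% the GC box and 6.57% the AP-1 site, and the median content of G and C was 58.0%. The cyclic AMP response element TGACGTCA was absent from these 3 windows and present in 1.65% of all windows, among them that of AREG. A match is a string of letters and not a shown binding site, and the array does not tell which EGFR start was used.

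Of the 8 measured genes, 3 were at least 1.5-fold lower in overexpression and none was at least 1.5-fold higher. They were EREG, ERBB3 and EGFR. Among the 12061 genes past the filter, 4.15% were lower and 4.97% were higher by this fold. All 8 genes passed the filter, and their brightest probe sets lay above the brightest bacterial control (5.85) on both arrays. The median difference of the 8 genes was -0.33, beside 0.00 for all genes past the filter, with 6 genes below 0 and 2 above it. The median absolute difference over all genes was 0.15. None of the 8 reached 2-fold.

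**Figure D1:**
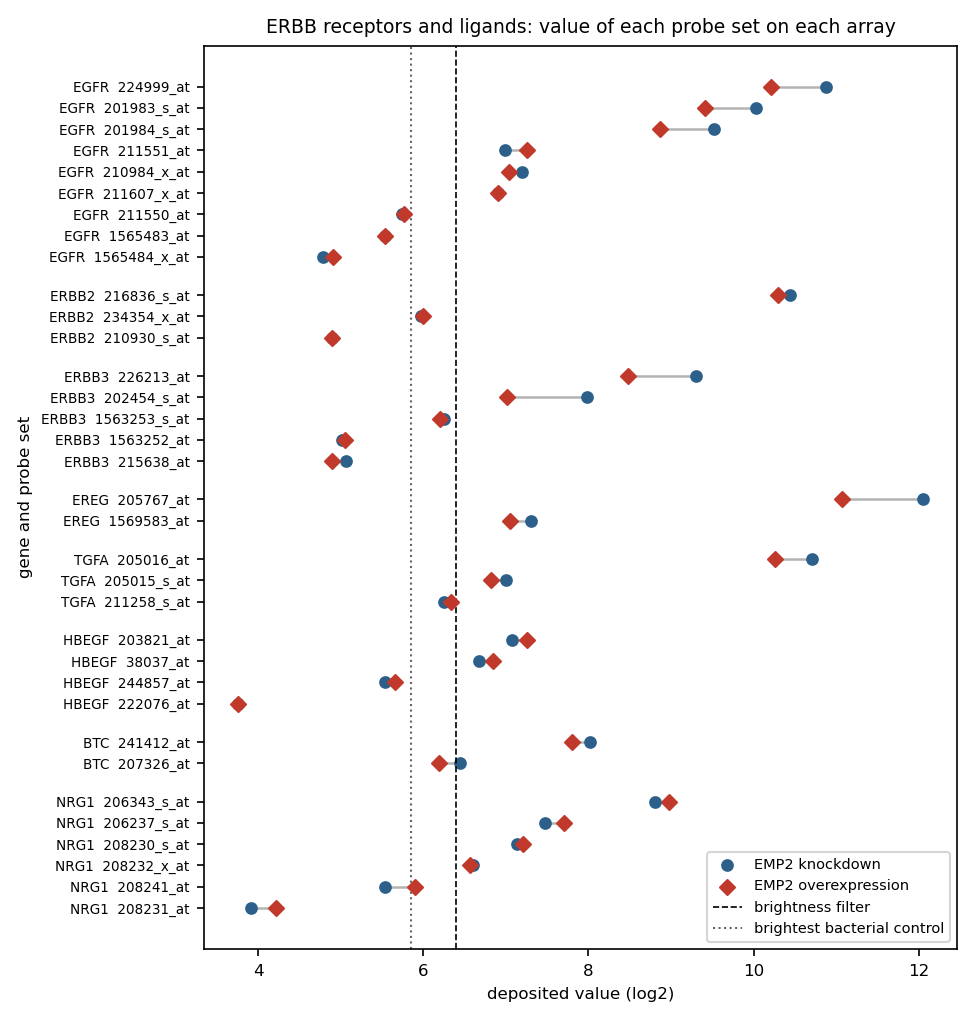
Deposited log2 value (x axis) of each of the 34 probe sets (y axis, by gene) in EMP2 overexpression (red diamonds) and EMP2 knockdown (blue circles), 1 array each; the dashed line is the brightness filter at 6.40 and the dotted line the brightest bacterial control at 5.85. The widest gaps are those of EREG, ERBB3 and EGFR, with the knockdown value on the right.

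Among the receptors, EGFR, the receptor of EGF and its relatives, read 10.21 in overexpression and 10.88 in knockdown on its brightest probe set (224999_at, Entrez gene 1956). This is a difference of -0.67, or 1.59-fold lower. The knockdown array was the higher of the pair on the next brightest probe sets too, at 9.41 against 10.03 (-0.62) and 8.87 against 9.52 (-0.65). The other 3 EGFR probe sets past the filter did not share the difference. They were dimmer, between 6.90 and 7.25, and differed by 0.26, -0.17 and -0.01. The remaining 3 of the 9 were below the filter and differed by 0.00 to 0.12. The mean over all 9 probe sets was -0.19 and over the 6 past the filter -0.31, both under 1.5-fold.

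ERBB3, the receptor that binds neuregulins and couples to PI3-kinase, read 8.48 in overexpression and 9.30 in knockdown (226213_at, Entrez gene 2065), 1.77-fold lower. Its other probe set past the filter read 7.01 and 7.98, a difference of -0.98. The knockdown array was higher on both. The 3 dimmer ERBB3 probe sets, all below the filter, differed by -0.17, -0.05 and 0.03, and the mean over all 5 was -0.40, under 1.5-fold. ERBB2, the partner receptor without a ligand, read 10.30 in overexpression and 10.45 in knockdown (216836_s_at) and so differed by -0.15. That is close to the median absolute difference of all genes, and its other 2 probe sets, below the filter, differed by 0.02 and 0.00.

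Among the ligands, EREG, epiregulin, which binds EGFR and ERBB4, had the largest difference of the 8 genes on the brightest probe sets, while by the mean of the probe sets past the filter ERBB3 (-0.90) exceeded EREG (-0.62). It read 11.08 in overexpression and 12.05 in knockdown (205767_at, Entrez gene 2069), 1.97-fold lower. Its other probe set was far dimmer and read 7.05 and 7.31, a difference of -0.26 in the same direction but under 1.5-fold. TGFA, transforming growth factor alpha, a ligand of EGFR alone, read 10.26 in overexpression and 10.71 in knockdown, which is 1.37-fold lower (-0.45). Its probe set 205015_s_at differed by -0.18, and the third, below the filter, by 0.09.

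BTC, betacellulin, read 7.81 in overexpression and 8.02 in knockdown, and its second probe set 6.19 and 6.44. These differences of -0.22 and -0.25 pointed the same way and were under 1.5-fold. The second probe set passed the filter of 6.40 through the knockdown array alone, so it is no independent sign of direction. HBEGF, the heparin-binding ligand, read 7.25 in overexpression and 7.08 in knockdown and so differed by 0.17. A second HBEGF probe set past the filter gave the same value (6.84 against 6.68, 0.17). NRG1, neuregulin 1, the ligand of ERBB3 in this set, read 8.97 in overexpression and 8.81 in knockdown, or 0.16 higher. Its other 3 probe sets past the filter differed by 0.23, 0.07 and -0.04. HBEGF and NRG1 were the 2 genes above 0, and neither was 1.5-fold higher on any probe set.

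**Figure D2:**
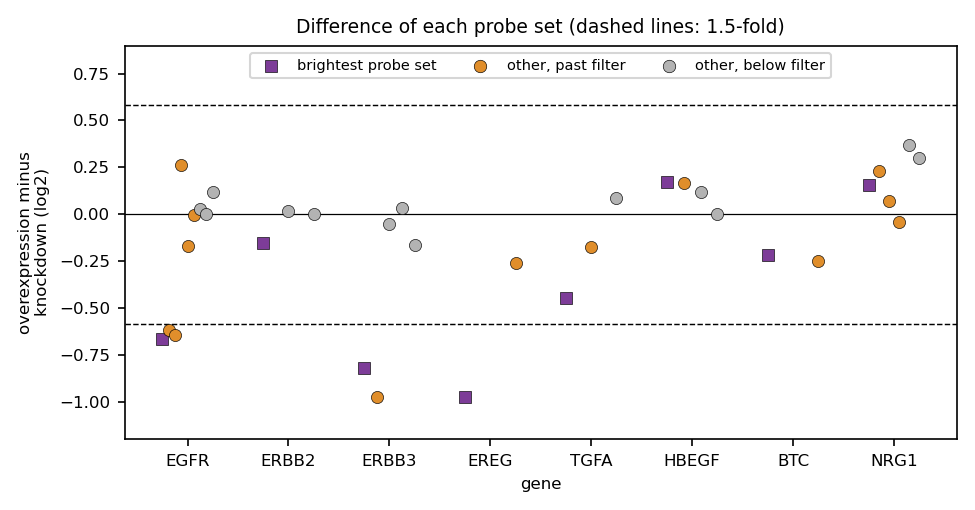
Difference of each probe set in log2 units (y axis) by gene (x axis); purple squares are the probe sets that stand for the genes, orange circles other probe sets past the brightness filter and grey circles those below it, and dashed lines mark 1.5-fold. Below the lower line lie 3 probe sets of EGFR, 2 of ERBB3 and 1 of EREG, and none lies above the upper line.

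Of the 34 probe sets, 21 passed the filter and 6 of these were at least 1.5-fold lower, beside 3.89% of all single-symbol probe sets past the filter. The 13 below the filter differed by -0.17 to 0.37, and 3 of the 34 had the identical value on both arrays. How far probe sets of the same gene differ was also described. They read the same RNA on the same arrays, so this is no measure of variation between cultures or arrays. Over 5567 genes with at least 2 probe sets past the filter, the differences of the brightest and the next brightest lay a median of 0.13 apart, and 5.60% of genes had a gap over 1.5-fold. The gap was 0.05 for EGFR, 0.15 for ERBB3 and 0.71 for EREG, so EREG was among that 5.60%. Of 210 such genes that were at least 1.5-fold lower on the brightest probe set, 96 (45.7%) were so on the next brightest too, as EGFR and ERBB3 were and EREG was not.

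In the order of all genes past the filter, counted from the lowest difference, EREG stood at rank 197, ERBB3 at 258, EGFR at 384 and TGFA at 772 of 12061. BTC was at the 18.4th percentile and ERBB2 at the 25.4th. On the other side of 0, NRG1 was at the 77.1st and HBEGF at the 78.6th. The 4 genes from BTC to HBEGF thus lay in the bulk of the distribution, and EREG, ERBB3 and EGFR lay within its lowest 3.18%.

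**Figure D3:**
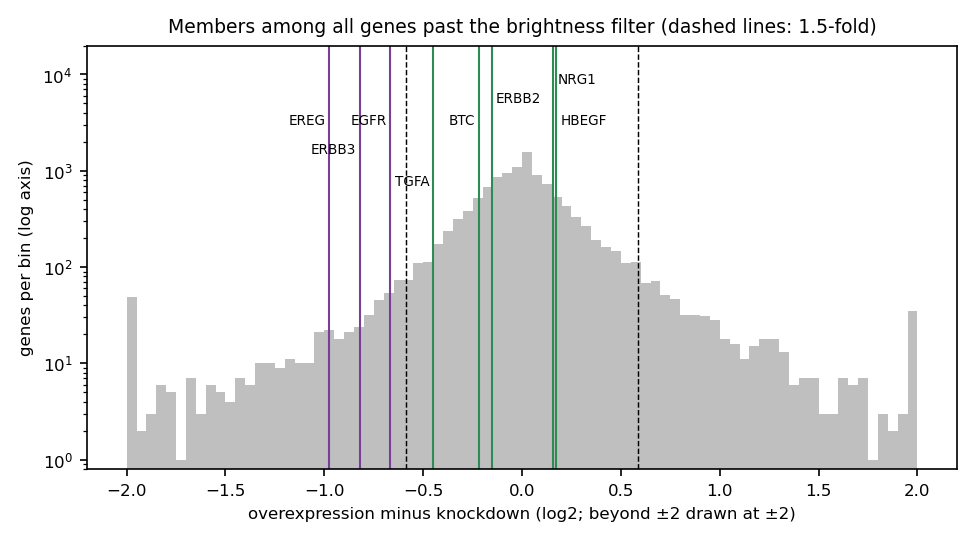
Number of genes (y axis, log scale) by difference in log2 units (x axis) for the 12061 genes past the filter, with vertical lines at the 8 measured ERBB genes (purple past 1.5-fold, green under it) and dashed lines at 1.5-fold. EREG, ERBB3 and EGFR lie left of the lower dashed line and the other 5 genes lie between the dashed lines.

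The remaining family members were dim on both arrays. ERBB4, EGF, NRG2, NRG3 and NRG4 were all below the filter, and the highest of them, EGF, read 6.13 and 6.11. ERBB4 read 4.89 and 4.90, under the brightest bacterial control.

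EREG, AREG, EPGN and BTC are neighbours on chromosome 4, next to a cluster of chemokine genes. Between CXCL8 and BTC in RefSeq's gene order, 14 genes were measured and 9 passed the filter. The genes that differed by 1.5-fold were CXCL8, CXCL1, CXCL3, CXCL2 and EREG, all lower in overexpression. CXCL8, CXCL2 and CXCL3 passed the filter through the knockdown array alone, so no count over this stretch is read as a result. The chemokine CXCL1 was 3.39-fold lower (7.33 against 9.09). CXCL8, CXCL2 and CXCL3, chemokines of the same cluster, did not exceed the bacterial controls in overexpression, and against that control level they were at least 4.93-fold, 2.19-fold and 1.53-fold lower. Between these genes lay PF4, a platelet chemokine (-0.16), MTHFD2L, a mitochondrial folate enzyme (-0.26), and the noncoding RNA LOC105377276 (-0.49), all below 0 and under 1.5-fold. CXCL6, PF4V1, PPBP, CXCL5 and PPBPP2 were below the filter, with differences between -0.17 and 0.00.

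**Figure D4:**
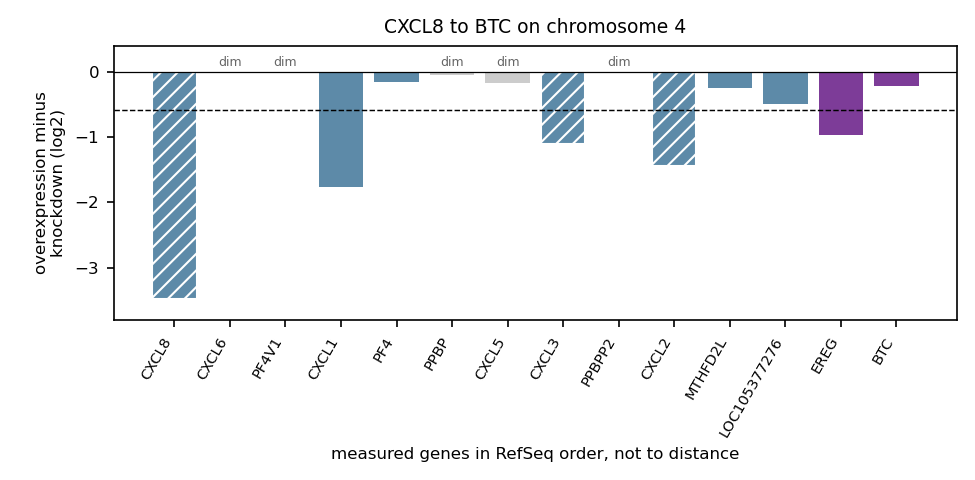
Difference in log2 units (y axis) of the 14 measured genes from CXCL8 to BTC on chromosome 4, in RefSeq order and not spaced by distance (x axis); EREG and BTC are purple, genes below the filter are grey and marked dim, hatched bars had an overexpression value not above the bacterial controls, and the dashed line marks 1.5-fold. CXCL8, CXCL1, CXCL3, CXCL2 and EREG pass the dashed line and BTC (-0.22) does not.

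Windows of the nearest genes past the filter, 10 on each side and without other ERBB genes, were described for each member. Each count stands beside the 4.15% of all genes past the filter that were lower and the 4.97% that were higher. Around EREG, 4 of 19 were at least 1.5-fold lower and the median was -0.25. Those lower include CXCL8, CXCL2 and CXCL3, which passed the filter through the knockdown array alone, so this count is not read as a result. Of the 20 nearest genes past the filter around ERBB3 on chromosome 12, none was past 1.5-fold in either direction, with a median of 0.02. Around EGFR on chromosome 7, 2 of 20 were at least 1.5-fold lower, led by the actin regulator COBL (-2.47), the median was -0.10, and LANCL2, the next gene, differed by -0.40. Around TGFA on chromosome 2, 1 of 20 was at least 1.5-fold lower and the median was 0.00. Around HBEGF on chromosome 5, 1 of 20 was lower and 2 were higher by this fold, with a median of 0.04. Around ERBB2 and around NRG1, none of 20 was past it in either direction, with medians of 0.03 and -0.03. The BTC window gave the same count and median as that of EREG.

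The genes that act with these receptors were counted in lists by role, over members past the filter, and each count stands beside the 4.15% of all genes that were lower and the 4.97% that were higher. In ligand shedding, 1 of 12 was at least 1.5-fold higher and none lower, with a median of 0.01. The higher gene was ADAM17, the protease that releases TGFA, EREG and AREG, at 11.01 against 10.41 (1.52-fold), and 2 of its 3 probe sets were past 1.5-fold. RHBDF1 and RHBDF2, which carry ADAM17 to the surface, differed by 0.38 and -0.29, and the protease ADAM10, which releases BTC, by 0.28.

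Among receptor inhibitors and ubiquitin ligases, 2 of 16 were at least 1.5-fold higher and 1 lower, with a median of 0.03. UBASH3B, a phosphatase that counters CBL-driven receptor loss, was 1.72-fold higher (10.79 against 10.01) on 4 of 4 probe sets past the filter. CBLC, a CBL ubiquitin ligase of epithelia, was just past the threshold (0.59 log2 units higher), on 1 of 2 probe sets. SH3KBP1, the CBL-binding adaptor CIN85 of receptor endocytosis, was also just past it (-0.59), with 3 of 3 probe sets past 1.5-fold. LRIG1, a membrane protein that lowers ERBB levels, differed by -0.51, and ERRFI1, the inhibitor of the EGFR kinase also called MIG6, by 0.36. None of 13 endocytosis and sorting genes differed by 1.5-fold, with values from -0.21 (SPRY2) to 0.21 (CAV1, caveolin 1), and AP2M1, an adaptor of clathrin coats, at -0.12 and HGS, a sorting protein, at 0.12.

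Of 26 adaptors and proximal signalling genes, 1 was at least 1.5-fold lower and none higher, with a median of 0.03, which is near the share of all genes. The lower gene was PIK3R1, the regulatory subunit of PI3-kinase (7.86 against 8.60, 1.67-fold), on its single probe set of 3 past the filter. PLCG1, phospholipase C gamma, differed by 0.41, the adaptor NCK2 by -0.36 and the exchange factor SOS1 by 0.31. A further 9 genes of this list were not analysed here. Of 15 coreceptors and chaperones 1 was higher, the heparan sulfate proteoglycan SDC1 (1.69-fold, on 2 of 2 probe sets), with a median of 0.18. CD44, a hyaluronan receptor that also acts as a coreceptor, differed by 0.20 on its brightest probe set (12.35 against 12.15), but of the 8 CD44 probe sets bright enough to count, 6 were past 1.5-fold in the same direction. MUC4, a mucin that binds ERBB2, differed by -0.38, SDC4 by 0.32 and MUC1 by 0.30.

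ERK feedback and target genes differed in both directions. Past 1.5-fold, 4 of 20 were lower and 3 were higher, and the median was -0.19, beside 4.15% lower, 4.97% higher and a median of 0.00 for all genes. DUSP4, a phosphatase of ERK, was 4.22-fold lower (6.48 against 8.56), on 3 of 3 probe sets. Its overexpression value lay close to the filter of 6.40. The transcription factor EGR1 was 2.14-fold lower (9.28 against 10.37), with 2 of 3 probe sets past 1.5-fold. SPRY1, an inhibitor of receptor signalling, was 2.25-fold higher (11.27 against 10.10), and the AP-1 subunit FOSL1 1.90-fold higher (9.51 against 8.59).

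**Figure D5:**
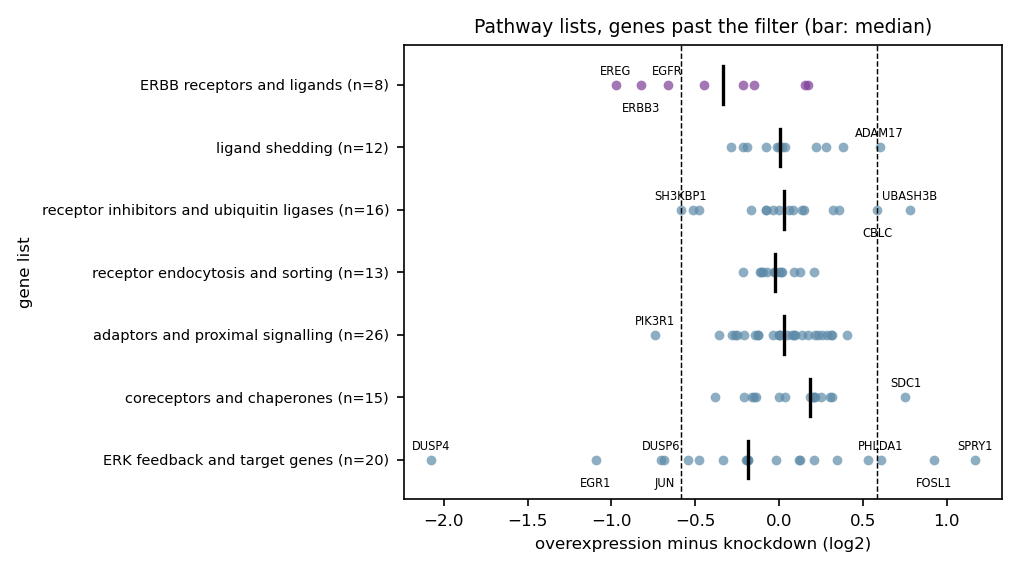
Difference in log2 units (x axis) of each gene past the filter, for the 8 measured ERBB genes (purple) and 6 lists of genes that act with them (blue), 1 row each; black bars are medians, dashed lines mark 1.5-fold and genes past them are named. On the brightest probe sets, drawn here, the median is -0.33 for the ERBB genes and lies between -0.19 and 0.18 for the lists. With all probe sets of a gene averaged, the median of the ERBB genes is -0.18.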

How the data were processed

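RNA of each state was hybridized to 1 Affymetrix array. The table deposited by the authors holds 1 log2 value per probe set and array; the base was inferred from the range, 2.01 to 14.72. The submitters' processing notes name Partek 6.6. For background correction, normalization and summarization the method is not given in the sources used here. After sorting, the largest gap between the arrays was 0.05, so they had been normalized to each other, which would remove a shift common to most genes. Per the labels' protocols, RNA was labelled with biotin through a whole-transcript kit.

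Of 54675 probe sets, 41097 had 1 gene symbol in the platform annotation. The filter was the median of these over both arrays. Values were used as deposited, in Python 3.11.15 with pandas 2.3.3. The control level is the highest of 27 Bacillus subtilis control probe sets. The counting code was tested on simulated data. Named were all members, EMP2, up to 4 genes per list with the largest absolute differences, and the measured genes from CXCL8 to BTC; other names (ERRFI1, CD44, COBL, LANCL2, the dim family members, the marker genes and the other receptor kinases) were chosen after their values were seen. The members, lists and motifs were chosen with earlier results of these data known. Alternatives were other ways to combine probe sets, other scalings, filters and a 2-fold threshold.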

Additional observations from a re-analysis of the deposited data

How the results depend on the processing

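The count of members at least 1.5-fold lower was 3 as deposited. It was 1 with all probe sets of a gene averaged (7 members past the filter then) and 0 at a threshold of 2-fold. Of all genes past the filter, 2.56% were lower with averaging and 1.53% at 2-fold, beside 4.15% as deposited. It was 3 with centred arrays, quantile normalization, no filter and a filter at the 75th percentile. Of all genes, 4.28%, 4.25%, 2.89% and 3.59% were lower in these settings. Scaling could shift values only a little, because the arrays had already been normalized to each other. All 8 members passed the filter as deposited, so removing it could not change their count. With the mean of the probe sets past the filter, added after seeing the data, it was 2, without EGFR, beside 3.62% of all genes. No member was 1.5-fold higher under any of these. The median difference of the members, -0.33 on the brightest probe sets, was -0.18 with all probe sets averaged. It was -0.21 on the second brightest probe sets and -0.27 with the mean of the probe sets past the filter. With centred arrays it was -0.34 and with quantile normalization -0.33. By gene, averaging all probe sets brought EGFR to -0.19 and ERBB3 to -0.40, the mean of the probe sets past the filter brought EGFR to -0.31, and the second brightest probe set of EREG gave -0.26. The other 36 member values stayed on their side of 1.5-fold and moved by less than that, and none of EGFR, ERBB3 and EREG changed sign. With averaging, receptor inhibitors and ubiquitin ligases had 1 higher gene of 13 and adaptors had 0 lower genes of 19. Of all genes, 3.87% were higher and 2.56% lower in that setting. The averages take in probe sets near the background. No paired analysis was possible because each group has 1 array, and no replicate could be left out. The number of arrays limits the precision.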

Other observations

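Other receptor tyrosine kinases differed in both directions. A list of 32, without the ERBB and Eph families, was added after seeing the data; 18 of 30 measured passed the filter. Past 1.5-fold, 6 of these were higher in overexpression and 3 were lower, beside 4.97% and 4.15% of all genes. The fibroblast growth factor receptors FGFR2 (8.55 against 7.30, 2.38-fold), FGFR1 (1.74-fold) and FGFR4 (1.56-fold) were higher, on 3 of 5, 2 of 4 and 1 of 3 probe sets past the filter. AXL, the receptor of GAS6, was 1.81-fold higher on 2 of 2 probe sets. FLT4, a receptor of lymphatic vessel growth factors, was 2.23-fold higher and PTK7, a Wnt coreceptor, 1.87-fold higher, each on its single probe set past the filter. IGF1R, the receptor of insulin-like growth factors, was 2.71-fold lower (6.82 against 8.26) on 1 of 2 probe sets, the insulin receptor INSR 1.66-fold lower on 2 of 3, and ROR1 1.88-fold lower on 1 of 2. The median of the 18 was 0.09. These values have no replicate check.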
